A study of Pan troglodytes with 8 samples.

Results

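Basal intermediate progenitors (bIP) were compared with apical radial glia (aRG), both sorted from cerebral organoids of the chimpanzee (Pan troglodytes) iPSC line SandraA. The comparison took the 2 bIP libraries and the 2 aRG libraries out of 8 libraries in all, chosen by the sorted population in their labels, and it covered every gene. Basal radial glia (bRG) and BCL11B-positive neurons (N), sorted from the same kind of organoid with 2 libraries each, entered the shared estimate of spread, and their levels are given beside some genes as a description. Organoids were collected at week 8 within 3 days either side, and each library was made from RNA of 10000 sorted cells by Smart-seq2, with 12 to 17 cycles of PCR. All populations came from 1 line, so differences between chimpanzee individuals were not sampled. Separate cultures are not named in the labels for the 2 libraries of a population, so p-values reflect only how far these libraries differ, and that spread may be technical. The counts include PCR copies and do not record the strand, so a gene cannot be told apart from an overlapping or antisense partner.

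Apical radial glia serve as stem cells of the developing cortex. They hold an apical junction belt at the ventricle, read Notch signals from their neighbours and divide repeatedly. Intermediate progenitors are their daughters: they leave the ventricular surface, express EOMES and proneural transcription factors, present Notch ligands to the radial glia and usually divide a last time into neurons.

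Library totals on the chimpanzee genome (panTro6) were 25888197 and 24707801 counts for bIP, and 24649971 and 33245892 counts for aRG. Levels are given as CPM (counts relative to library size, with edgeR's TMM scaling), for library 1 and then library 2. A gene is called, and said to have risen or fallen in bIP, where edgeR's quasi-likelihood test gave an adjusted p (Benjamini-Hochberg over 35382 genes) under 0.05. Fold changes are log2, bIP over aRG, with their standard error (SE). With 2 libraries against 2 an exact permutation test of a single gene cannot go below p = 0.333, so none is given.

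Across all 35382 genes, 473 (1.34%) rose in bIP and 529 (1.50%) fell. DESeq2 called 1072 (4.65%) higher and 1231 (5.34%) lower, and at an unadjusted p under 0.05 there were 2281 (6.45%) higher and 2417 (6.83%) lower. The 2 bIP libraries lay above both aRG libraries in 22.1% of genes and below both in 20.7%. Among the 11673 genes of at least 10 CPM in bIP or aRG, edgeR called 3.73% higher and 4.33% lower. The median fold change of all genes was 0.05 on the log2 scale, and the median size among called genes was 2.24, with a smallest of 0.97. On the human genome (hg38), where the same libraries were counted over fewer genes, 584 (3.57%) rose and 607 (3.71%) fell. Counts for gene lists below give edgeR's calls, and in parentheses the genes higher and lower by DESeq2 and at an unadjusted p under 0.05. Called members named from a list were mostly chosen for a small adjusted p. Where the text says that their bIP and aRG libraries did not overlap, this largely follows from that choice and adds no support.

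The sorted populations matched their labels for most defining transcripts, but genes of neuron identity were also higher in bIP than in aRG. Of 16 such genes 11 rose and 0 fell by edgeR, with a median of 2.209, against 1.955 for the intermediate progenitor genes. Of 12 genes of apical radial glia identity 0 rose and 7 fell by edgeR (0 and 9 by DESeq2, 0 and 9 at an unadjusted p under 0.05), and of 14 genes of intermediate progenitor identity 9 rose and 0 fell by edgeR (11 and 0 by DESeq2, 11 and 0 at an unadjusted p under 0.05). The 12 genes summed to 3669.2 and 3858.5 CPM in aRG, 2620.1 and 2475.8 CPM in bRG and 661.1 and 669.5 CPM in bIP. As a list they were thus shared with basal radial glia and not particular to the apical kind. SOX2, the stem cell transcription factor, was at 83.2 and 72.6 CPM in bIP, against 958 and 850.0 CPM in aRG (log2 fold change −3.54, SE 0.36, adjusted p = 0.000539). EOMES, the T-box factor that defines intermediate progenitors, was at 1357 and 1540.3 CPM in bIP, against 90.4 and 184 CPM in aRG (3.40, SE 0.54, adjusted p = 0.00513). For both genes the 2 bIP libraries lay far from the 2 aRG libraries. PROM1, an apical membrane protein, was at 12.7 and 10.7 CPM in bIP, against 64.1 and 62.7 CPM in aRG (adjusted p = 0.00212). PAX6, the dorsal progenitor factor, was not called, with 122 and 101 CPM in bIP and 228 and 158 CPM in aRG (adjusted p = 0.392). SLC1A3, a glutamate transporter of radial glia, separated the library numbers more than the populations, at 4.82 and 44.8 CPM in bIP and 27.1 and 236 CPM in aRG. Among the intermediate progenitor genes, PPP1R17, a phosphatase inhibitor, was at 97.8 and 263 CPM in bIP, against 12.0 and 20.9 CPM in aRG (3.45, adjusted p = 0.0113). PENK and MFAP4 were not called (log2 fold change −1.06 and −0.17), and CORO1C was at 0.59 (adjusted p = 0.384). Of the 14 intermediate progenitor genes 5 were called without bIP replicate 2 or without aRG replicate 1. The fold of EOMES was 4.00 without aRG replicate 2, and that of PPP1R17 was 2.57 without bIP replicate 2.

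Markers of other cell types moved with the comparison in part. The 14 choroid plexus genes summed to 98.9 and 103.8 CPM in bIP, against 1034.7 and 3375.7 CPM in aRG, and of them 0 rose and 4 fell by edgeR (0 and 7 by DESeq2, 0 and 10 at an unadjusted p under 0.05). The members that fell were TTR (−5.09), the water channel AQP1 (−3.56), the ion channel TRPM3 (−3.03) and the transcription factor OTX2 (−3.47). TTR alone held 819 and 3092 CPM of the aRG sums, and 51.3 and 63.2 CPM of the bIP sums. Of the members not called, only PRLR (1.18) and SLC4A5 (0.09) were not lower in bIP, and their libraries overlapped. The 17 mesenchymal and vascular genes summed to 208.0 and 215.5 CPM in bIP, against 577.8 and 2316.5 CPM in aRG, and of them 0 rose and 4 fell by edgeR (0 and 9 by DESeq2, 0 and 9 at an unadjusted p under 0.05), all 4 of them collagens. The sum of each list was largest in aRG replicate 2, and of the tested members only the serotonin receptor HTR2C was at 0 counts in one of the 4 libraries, bIP replicate 1. Without bIP replicate 2 the calls of AQP1, TRPM3 and OTX2 were lost (adjusted p = 0.0614, 0.0586 and 0.119), and without aRG replicate 2 that of AQP1 (0.105) was lost and the folds of TTR and AQP1 were −3.84 and −2.38. Without aRG replicate 1 the folds of TTR and AQP1 were −5.80 and −4.24, and without bIP replicate 1 those of TRPM3 and OTX2 were −3.78 and −4.17. Among the mesenchymal and vascular genes 8 fell without aRG replicate 1, and 2 without aRG replicate 2 or without bIP replicate 1. The median fold of that list was −2.16, or −0.52 without aRG replicate 2.

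Immune, inhibitory neuron and pluripotency markers were low in both populations, and endothelial genes went both ways without a call by edgeR. The endothelial adhesion molecules PECAM1 and CDH5 overlapped, PECAM1 at 2.52 and 2.75 CPM in bIP and 0.354 and 3.27 CPM in aRG, and CDH5 at 21.1 and 5.82 CPM in bIP and 10.5 and 2.18 CPM in aRG. The receptor KDR was at 3.11 and 2.24 CPM in bIP and 1.73 and 1.86 CPM in aRG, so its bIP libraries lay above those of aRG. The receptor TEK lay lower, at 1.13 and 1.89 CPM in bIP, against 8.06 and 5.48 CPM in aRG (−2.16, adjusted p = 0.0899, and 0.00621 by DESeq2). CLDN5, an endothelial junction protein counted above among the choroid plexus genes, was at 1.4 and 2.52 CPM in bIP, against 8.42 and 16.9 CPM in aRG (−2.69, adjusted p = 0.0983, and 0.00261 by DESeq2). The 7 immune genes tested summed to 30.1 and 34.0 CPM in bIP, against 31.7 and 27.3 CPM in aRG, with AIF1 and C1QA listed at 0 on this genome, and of them 0 rose and 0 fell by edgeR (0 and 0 by DESeq2, 0 and 0 at an unadjusted p under 0.05). The 11 inhibitory neuron genes tested summed to 25.7 and 25.2 CPM in bIP, against 35.8 and 26.2 CPM in aRG, and 0 rose and 0 fell by edgeR (1 and 0 by DESeq2, 1 and 0 at an unadjusted p under 0.05). The 5 pluripotency genes tested summed to 4.1 and 15.5 CPM in bIP, against 12.2 and 4.8 CPM in aRG, with UTF1 listed at 0, and 0 rose and 0 fell by edgeR (0 and 0 by DESeq2, 0 and 0 at an unadjusted p under 0.05). The 17 genes of non-telencephalic regions and neural crest summed to 32.5 and 20.9 CPM in bIP, against 50.4 and 27.4 CPM in aRG, and 0 rose and 0 fell by edgeR (0 and 1 by DESeq2, 0 and 1 at an unadjusted p under 0.05).

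Markers of glia were lower in bIP in part, and those of Cajal-Retzius cells went both ways. The 12 astrocyte and oligodendrocyte precursor genes summed to 53.1 and 44.0 CPM in bIP, against 146.2 and 159.1 CPM in aRG, and 0 rose and 3 fell by edgeR (0 and 6 by DESeq2, 1 and 6 at an unadjusted p under 0.05). The gap junction protein GJA1 fell by 3.79, the glial filament GFAP by 2.57 and the receptor PDGFRA by 2.36. GFAP was at 38.3 and 18.7 CPM in bRG, near its aRG levels of 37.6 and 20.5 CPM. AQP4 (2.13, with overlapping libraries) and MBP (1.84, adjusted p = 0.36) went the other way without a call. The lineage factors OLIG1, OLIG2 and SOX10 were low in both populations, with folds of 0.07, 0.07 and −0.16. The 9 Cajal-Retzius genes tested summed to 118.2 and 103.1 CPM in bIP, against 72.3 and 103.8 CPM in aRG, and 0 rose and 1 fell by edgeR (2 and 2 by DESeq2, 2 and 3 at an unadjusted p under 0.05), with a median of 0.37, or −0.33 without bIP replicate 1. The faller was the calmodulin-binding PCP4 (−2.69). The libraries of RELN, the secreted protein that defines these cells, did not overlap, at 47.3 and 37.3 CPM in bIP, against 12.2 and 17.4 CPM in aRG (1.51, adjusted p = 0.206), and neither did those of the transcription factors EBF3 (1.71, adjusted p = 0.0914) and LHX1 (1.89, adjusted p = 0.411), higher in bIP and not called by edgeR. The calls of GFAP, PDGFRA and PCP4 were lost without bIP replicate 1 (adjusted p = 0.109, 0.183 and 0.056) and without bIP replicate 2 (0.0501, 0.262 and 0.0774), those of GFAP and PDGFRA without aRG replicate 1 (0.0952 and 0.123) and those of PDGFRA and PCP4 without aRG replicate 2 (0.287 and 0.0959). The 16 neuron genes summed to 5115.8 and 6448.9 CPM in bIP, against 1149.0 and 1570.0 CPM in aRG, and to 9154.7 and 8527.2 CPM in N. Of them 11 rose and 0 fell by edgeR (11 and 0 by DESeq2, 13 and 0 at an unadjusted p under 0.05). The part that cells of these other types had in the differences below was not tested. In bulk libraries fewer cells of a type and less RNA per cell cannot be told apart. The nuclear RNA MALAT1 took 8.57% and 6.47% of counts in bIP, against 7.52% and 3.61% in aRG.

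**Figure D1:**
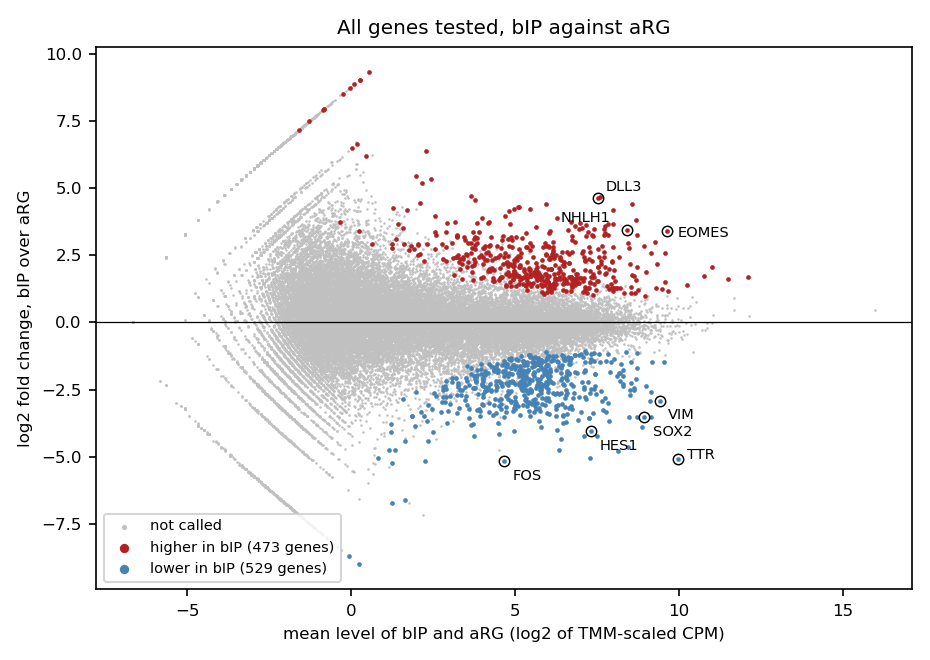
Log2 fold change of bIP over aRG (vertical axis) against the mean level of the 2 populations in log2 CPM (horizontal axis) for each of the 35382 genes tested. Red points are the 473 genes called higher in bIP, blue points the 529 called lower, and circles mark named genes.

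Leading genes were taken from called genes averaging 10 CPM or more in bIP or aRG, with no overlap between bIP and aRG libraries. The 12 largest rises in bIP held genes of Notch signalling, axon guidance, neuronal transcription and synapses. KLHL35, a Kelch-family protein, was at 236 and 502 CPM in bIP, against 6.53 and 22.7 CPM in aRG (log2 fold change 4.65, SE 0.67, adjusted p = 0.00289). DLL3, an unusual member of the Notch ligand family that stays inside the cell, was at 211 and 492 CPM in bIP, against 11.5 and 16.5 CPM in aRG (4.65, SE 0.50, adjusted p = 0.000606). The lack of overlap was set by the rule, and bIP replicate 2 was the higher bIP library for both KLHL35 and DLL3. PPP1R16B, a regulatory subunit of protein phosphatase 1, was at 26.6 and 25.4 CPM in bIP, against 1.73 and 0.501 CPM in aRG (4.56, adjusted p = 0.00216). PLXNA4, a semaphorin receptor, was at 535 and 917 CPM in bIP, against 27.1 and 41.3 CPM in aRG (4.41, adjusted p = 0.000848). EBF2, a factor that acts as neurons begin to differentiate, was at 38.3 and 128 CPM in bIP, against 3.74 and 5.22 CPM in aRG (4.21, adjusted p = 0.00451), and its levels were 2.63 and 6.02 CPM in bRG and 0.889 and 2.37 CPM in N. Its 2 bIP libraries therefore stood above all 6 others. XKR7, NPTX1 (a synaptic pentraxin), FSTL5 (a secreted follistatin-like protein) and SSTR2 (a somatostatin receptor) rose by 4.21, 4.20, 4.13 and 3.81 on the log2 scale. CACNG5, an auxiliary subunit of AMPA receptors, was at 41.7 and 17.9 CPM in bIP, against 2.52 and 1.53 CPM in aRG (3.88, adjusted p = 0.0288). The pseudogenes RN7SL508P (4.29) and RBM43P1 (3.96) also ranked among the 12, and counts of such near-copies are uncertain. Some of these folds rested on single libraries. The calls of CACNG5 and RBM43P1 were lost without aRG replicate 1 (adjusted p = 0.0668 and 0.0539) and without aRG replicate 2 (0.123 and 0.123), that of CACNG5 also without bIP replicate 1 (0.103, fold 3.14) and that of RBM43P1 without bIP replicate 2 (0.167, fold 2.99). Without bIP replicate 2 the fold of DLL3 was 3.91, that of KLHL35 4.00 and that of EBF2 3.09. Without aRG replicate 2 the fold of KLHL35 was 5.82, that of PPP1R16B 3.91, that of FSTL5 4.95 and that of SSTR2 4.41. Without aRG replicate 1 the fold of KLHL35 was 3.98 and that of PPP1R16B 5.64, and without bIP replicate 1 that of EBF2 was 4.82.

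By the same rule, the 12 largest falls in bIP held immediate early genes, choroid plexus and mesenchymal transcripts and genes of mitosis. FOS, an immediate early transcription factor, was at 0.466 and 2.24 CPM in bIP, against 61.0 and 37.2 CPM in aRG (−5.18, SE 0.82, adjusted p = 0.0046), and EGR1, another, was at 5.28 and 10.7 CPM in bIP, against 263 and 59.1 CPM in aRG (−4.33, adjusted p = 0.00778). TTR, the thyroid hormone carrier of choroid plexus, was at 51.3 and 63.2 CPM in bIP, against 819 and 3092 CPM in aRG (−5.09, adjusted p = 0.000612). The 2 aRG libraries differed widely for EGR1, which was higher in replicate 1, and for TTR, which was higher in replicate 2. The fibrillar collagens COL3A1 and COL1A1 fell by 5.05 and 4.78 on the log2 scale, with 56.3 and 554 CPM and 155 and 941 CPM in aRG, beside the mesenchymal sums given above. TNFRSF12A, the receptor of the cytokine TWEAK, was at 8.74 and 2.64 CPM in bIP, against 186 and 123 CPM in aRG (−4.76, adjusted p = 0.00218). ADAMTS15, a secreted metalloprotease, and AHNAK, a large scaffold protein, fell by 4.22 and 4.17. PIF1, a DNA helicase, was at 22.4 and 31.6 CPM in bIP, against 630.2 and 707 CPM in aRG (−4.63, SE 0.37, adjusted p = 0.000306). CDC20 and TROAP, which act in mitosis, each fell by 4.22, and CENPA, the centromeric histone, by 4.08. Leaving out libraries changed several of these values. The call of COL3A1 was lost without aRG replicate 2 (adjusted p = 0.107, fold −2.61), without bIP replicate 1 (0.0538, fold −4.26) and when only the 4 libraries of the comparison were fitted (0.0595), and its fold was −7.04 without bIP replicate 2 and −5.96 without aRG replicate 1. The call of CENPA was lost without aRG replicate 1 (0.066), without bIP replicate 1 (0.0601) and without bIP replicate 2 (0.0907). Without aRG replicate 2 the fold of TTR was −3.84 and that of COL1A1 −2.96, while that of EGR1 was −5.04. Without aRG replicate 1 these folds were −5.80, −5.61 and −2.93 in the same order. Without bIP replicate 2 the folds of FOS, COL1A1, TNFRSF12A, EGR1 and ADAMTS15 were −6.71, −6.72, −4.14, −4.93 and −5.11. Without bIP replicate 1 those of FOS, COL1A1, TNFRSF12A and AHNAK were −4.46, −4.00, −5.88 and −4.89.

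**Figure D2:**
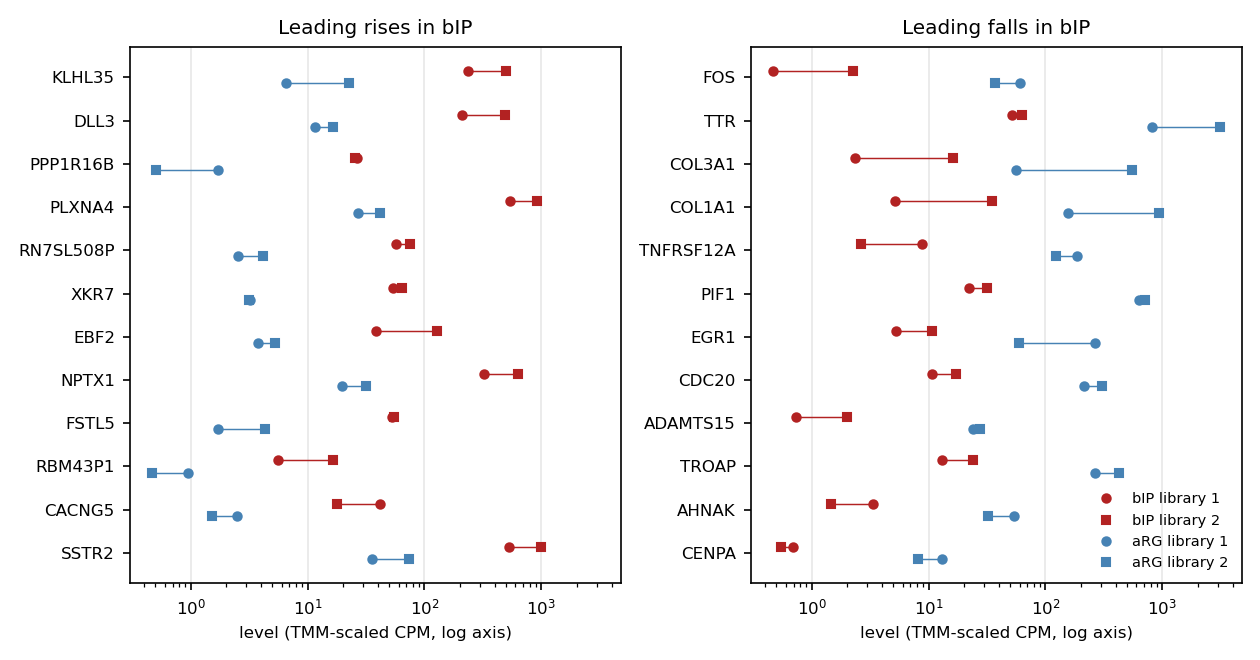
Level in CPM (log axis) of the 12 genes with the largest rise in bIP (left) and the 12 with the largest fall (right). Red marks are the bIP libraries and blue marks the aRG libraries, circles library 1 and squares library 2, and the line joins the 2 libraries of a population. The bIP and aRG lines of a gene do not overlap, by the rule that chose the genes, and the longest aRG lines belong to COL3A1, COL1A1 and EGR1.

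Neurogenic transcription factors formed the group with the largest share of rises among the lists read. The list is not separate from the identity lists above. EOMES, NEUROG2, HES6 and NHLH1 are also among the intermediate progenitor genes, and TBR1 and BCL11B among the neuron genes, so such genes are counted again here. Of 27 members 19 rose and 0 fell by edgeR (25 and 0 by DESeq2, 25 and 0 at an unadjusted p under 0.05), with a median fold of 2.60 on the log2 scale, where the median of all genes was 0.05. The basic helix-loop-helix factor NHLH1 was at 538 and 721 CPM in bIP, against 51.4 and 64.7 CPM in aRG (3.44, SE 0.65, adjusted p = 0.0129). MYT1, a zinc finger factor of the neurogenic programme, was at 239 and 226 CPM in bIP, against 14.2 and 21.4 CPM in aRG (3.70, SE 0.41, adjusted p = 0.000648). Its relatives MYT1L and ST18 rose by 3.20 and 2.96. For each of these 4 genes both bIP libraries exceeded both aRG libraries. Without aRG replicate 2 the fold of MYT1L was 4.01.

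SCRT2, a repressor of the Snail superfamily, was at 149 and 236 CPM in bIP, against 10.2 and 18.9 CPM in aRG (3.72, adjusted p = 0.00102). BHLHE22 was at 341 and 243 CPM in bIP, against 26.1 and 35.1 CPM in aRG (3.25, adjusted p = 0.00442). TBR1, a factor of deep-layer neurons, was at 284 and 266 CPM in bIP, against 15.0 and 37.9 CPM in aRG, and at 467 and 439.9 CPM in N (bIP over aRG 3.37, adjusted p = 0.00195). The SoxC factors SOX11 and SOX4 rose by 2.08 and 1.61, with 4255 and 4401 CPM of SOX4 in bIP and 1289 and 1541 CPM in aRG, while their relative SOX12 was at 169 and 137 CPM in bIP and 142 and 155 CPM in aRG (0.04, adjusted p = 0.981). Of the proneural factors, NEUROG2 rose by 1.28 and NEUROG1 was at 1.59 (adjusted p = 0.0907). Leaving out a library gave 13 to 18 rises in this group. The call of NEUROG2 was lost whichever of the 4 libraries was left out (adjusted p = 0.154 and 0.0659 without bIP replicates 1 and 2, and 0.175 and 0.0632 without aRG replicates 1 and 2). Without aRG replicate 2 the fold of TBR1 was 4.19.

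Progenitor transcription factors moved the other way, but less uniformly. Of 43 members tested 2 rose and 12 fell (2 and 21 by DESeq2, 3 and 25 at an unadjusted p under 0.05), with a median of −1.28. Of these, 6 fell without bIP replicate 2 and 8 without aRG replicate 1. HES1, the effector of Notch signalling, was at 13.2 and 22.9 CPM in bIP, against 374 and 226 CPM in aRG (−4.05, SE 0.40, adjusted p = 0.000539). ID4, which blocks basic helix-loop-helix factors, was at 114 and 104 CPM in bIP, against 655 and 589 CPM in aRG (−2.51, SE 0.28, adjusted p = 0.000648). TCF7L1, a repressor of Wnt targets, was at 20.5 and 22.7 CPM in bIP, against 107 and 96.4 CPM in aRG (−2.23, adjusted p = 0.00327). Each of these was several-fold lower in both bIP libraries.

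RFX4, GLI3 and OTX2 fell by 2.10, 1.90 and 3.47, and their calls were lost without bIP replicate 2 (adjusted p = 0.0517, 0.0515 and 0.119). OTX2 is also a choroid plexus gene, and its fold was −4.17 without bIP replicate 1. Of the regional factors of the dorsal forebrain, LHX2 was at 759 and 663 CPM in bIP and 1003 and 883 CPM in aRG (−0.41, SE 0.41, adjusted p = 0.788) and was not called. EMX1, also not called, was at 154 and 110.0 CPM in bIP and 86.4 and 99.1 CPM in aRG (0.51, SE 0.28, adjusted p = 0.489).

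The 2 risers of this group were nuclear factor I genes, which drive the later, gliogenic programme of radial glia and are also used by neurons. NFIA was at 7208 and 6292 CPM in bIP, against 2166 and 1986 CPM in aRG (1.70, SE 0.23, adjusted p = 0.00192), and at 2031 and 2092 CPM in bRG and 5166 and 3921 CPM in N. NFIB was at 1696 and 1853 CPM in bIP, against 633 and 709 CPM in aRG (1.40, SE 0.24, adjusted p = 0.00755), a call lost without bIP replicate 2 (0.0557) and without aRG replicate 1 (0.0587). NFIX was at 70.2 and 42.4 CPM in bIP and 60.1 and 42.4 CPM in aRG (adjusted p = 0.949), so its libraries overlapped.

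**Figure D3:**
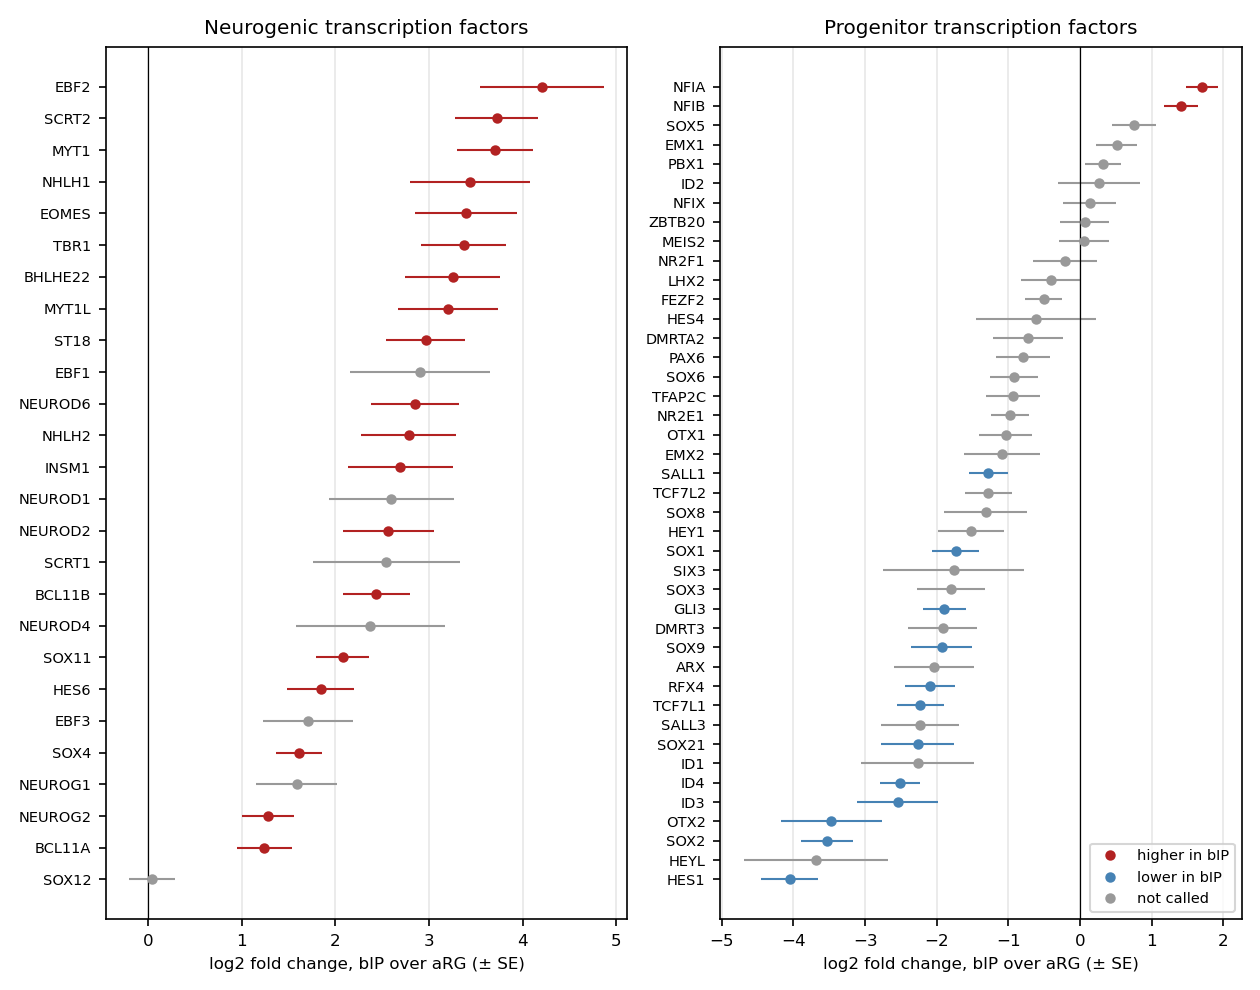
Log2 fold change of bIP over aRG with its SE for 26 neurogenic (left) and 42 progenitor (right) transcription factors, sorted by value. Red marks genes called higher in bIP, blue those called lower and grey those not called. Of the neurogenic factors plotted, all but SOX12 lie above 1, and among the progenitor factors NFIA and NFIB stand above the rest.

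Notch pathway transcripts moved both ways, with 3 receptors and the effector HES1 lower and the ligand-family member DLL3 higher in bIP. Of 33 members tested 2 rose and 6 fell (4 and 9 by DESeq2, 6 and 9 at an unadjusted p under 0.05), with a median of −0.10. Of all genes of at least 10 CPM 3.73% rose and 4.33% fell. The receptor NOTCH3 was at 48.4 and 58.3 CPM in bIP, against 321 and 421 CPM in aRG (−2.80, SE 0.28, adjusted p = 0.000539). NOTCH2 was at 23.8 and 22.8 CPM in bIP, against 73.1 and 69.2 CPM in aRG (−1.61, adjusted p = 0.00861), and NOTCH1 fell by 1.47 (adjusted p = 0.0302). In all 3 receptors both bIP libraries were below both aRG libraries. DLL1, an activating ligand, was at 180.5 and 111 CPM in bIP and 120.3 and 112 CPM in aRG (0.32, adjusted p = 0.774), whereas DLL3, among the leading rises, was at 4.65, or 3.91 without bIP replicate 2. LFNG, a glycosyltransferase that modifies Notch receptors, was at 9.09 and 5.19 CPM in bIP, against 33.4 and 37.6 CPM in aRG (−2.31, adjusted p = 0.0117). DLK1, a non-canonical ligand, fell by 2.20. NUMBL, a paralogue of the Notch antagonist NUMB, rose by 1.39 (adjusted p = 0.0139). HES5, a main Notch target in mouse radial glia, had no counts on the chimpanzee genome in any of the 8 libraries. On the human genome HES5 was at 14.6 and 5.68 CPM in bIP and 107 and 33.4 CPM in aRG (−2.78, SE 0.89, adjusted p = 0.0966). Several Notch calls depended on a library. Without bIP replicate 2, 2 of the 33 fell: NOTCH2, NOTCH1, DLK1 and LFNG were then at adjusted p = 0.072, 0.249, 0.0596 and 0.0922. NOTCH2 was also lost without bIP replicate 1 (0.0538), and NOTCH1 without aRG replicates 1 and 2 (0.0625 and 0.0571). NUMBL was lost without bIP replicate 2 (0.137) and without aRG replicates 1 and 2 (0.0609 and 0.112).

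Called genes of growth factor signalling were all lower in bIP, receptors as well as known transcriptional targets and feedback inhibitors. Of 48 members of the FGF, ERBB, PDGF and IGF list 0 rose and 10 fell by edgeR (0 and 17 by DESeq2, 1 and 19 at an unadjusted p under 0.05), with a median of −0.64. FGFR1, an FGF receptor, was at 105 and 89.0 CPM in bIP, against 462 and 806 CPM in aRG (−2.71, SE 0.42, adjusted p = 0.00442). The secreted FGF carrier FGFBP3 was at 52.1 and 35.0 CPM in bIP, against 294 and 247 CPM in aRG (−2.63, adjusted p = 0.00193). Both aRG libraries stood above both bIP libraries for each gene. ETV5, an ETS factor induced by FGF signalling, was at 4.7 and 13.5 CPM in bIP, against 132 and 156 CPM in aRG (−3.99, adjusted p = 0.00162), and its relative ETV4 was at 5.2 and 1.02 CPM in bIP, against 36.9 and 46.6 CPM in aRG (−3.74, adjusted p = 0.00538). The inhibitor SPRY4 was at 2.56 and 2.83 CPM in bIP, against 26.5 and 24.8 CPM in aRG (−3.25, SE 0.43, adjusted p = 0.00176), and the ERK phosphatase DUSP6 at 11.5 and 8.89 CPM in bIP, against 76.5 and 57.5 CPM in aRG (−2.71, SE 0.36, adjusted p = 0.00176). ERBB2, a receptor of the EGF family, fell by 1.62, FGFR2 by 2.08 and SPRED1, another feedback inhibitor, by 1.97. These 3 calls were lost without bIP replicate 2 for ERBB2 and SPRED1 (adjusted p = 0.128 and 0.119), without bIP replicate 1 for ERBB2 and FGFR2 (0.0502 and 0.133), without aRG replicate 2 for ERBB2 and FGFR2 (0.131 and 0.0558) and without aRG replicate 1 for SPRED1 (0.0724). Without bIP replicate 2 the folds of ETV5 and ETV4 were −4.94 and −3.01, that of FGFR2 was −2.84, and without bIP replicate 1 that of ETV4 was −5.36.

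Of 43 BMP and TGF-beta genes 1 rose and 7 fell (3 and 12 by DESeq2, 5 and 15 at an unadjusted p under 0.05), with a median of −0.37. The riser was the secreted FSTL5 (4.13, and 4.95 without aRG replicate 2). SMAD3, a transducer of TGF-beta signals, was at 9.4 and 10.7 CPM in bIP, against 68.1 and 73.3 CPM in aRG (−2.81, SE 0.32, adjusted p = 0.000822). The ligand BMP7 was at 10.1 and 12.1 CPM in bIP, against 73.5 and 89.3 CPM in aRG (−2.88, SE 0.37, adjusted p = 0.00145). LTBP1, which stores TGF-beta in the matrix, fell by 2.21, and the corepressor TGIF1 by 2.71 (fold −3.73 without bIP replicate 2). Of 20 Hedgehog genes 1 rose and 4 fell (1 and 6 by DESeq2, 1 and 8 at an unadjusted p under 0.05). BOC, a coreceptor of Hedgehog ligands, was at 120.5 and 158 CPM in bIP, against 419.9 and 540.2 CPM in aRG (−1.78, adjusted p = 0.00797), a call lost without bIP replicate 1 (0.0663). GAS1, another coreceptor, was at 17.4 and 15.3 CPM in bIP, against 114 and 71.6 CPM in aRG (−2.50, adjusted p = 0.0133), a call lost without bIP replicate 2 (0.0722). Of the Hedgehog genes, 1 fell without bIP replicate 2, and 2 fell without bIP replicate 1. The number of BMP and TGF-beta genes that fell was 4 without bIP replicate 1.

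Of 27 Hippo pathway genes and targets 1 rose and 7 fell (1 and 7 by DESeq2, 1 and 12 at an unadjusted p under 0.05), with a median of −0.51. YAP1, the coactivator that the pathway restrains, was at 14.4 and 11.5 CPM in bIP, against 79.7 and 73.5 CPM in aRG (−2.56, SE 0.37, adjusted p = 0.00308). AXL, a receptor kinase and YAP target, was at 13.7 and 10.3 CPM in bIP, against 63.0 and 56.7 CPM in aRG (−2.31, SE 0.35, adjusted p = 0.00388). The kinase LATS2, which restrains YAP1, was lower too, at 1.48 and 1.57 CPM in bIP, against 16.0 and 8.14 CPM in aRG (−2.98, adjusted p = 0.035). AMOTL2, an angiomotin that binds YAP1, was higher, at 91.3 and 180.0 CPM in bIP, against 37.1 and 48.1 CPM in aRG (1.67, adjusted p = 0.0229). The calls of LATS2 and AMOTL2 were lost without bIP replicate 2 (0.162 and 0.249) and without aRG replicate 1 (0.191 and 0.141), and that of LATS2 without bIP replicate 1 (0.153). Of the Hippo genes, 3 fell without bIP replicate 2 or without aRG replicate 1, and 4 without bIP replicate 1. Mesenchymal cells also express YAP targets and TGF-beta genes, and the summed mesenchymal markers above moved the same way as these lists. Their part in these falls was not tested.

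Apical junction and polarity genes were lower in bIP for part of the list. Of 40 members tested 2 rose and 7 fell (2 and 12 by DESeq2, 3 and 15 at an unadjusted p under 0.05), with a median of −0.49. Of all genes of at least 10 CPM 3.73% rose and 4.33% fell, so the rises were near the general share. The atypical cadherin FAT1 was at 18.0 and 21.1 CPM in bIP, against 105 and 112 CPM in aRG (−2.47, SE 0.33, adjusted p = 0.00195). CELSR1, a cadherin of planar polarity, was at 17.6 and 8.1 CPM in bIP, against 70.8 and 59.2 CPM in aRG (−2.34, adjusted p = 0.00902). NECTIN3, an adhesion molecule of the junction belt, was at 20.2 and 13.6 CPM in bIP, against 58.9 and 56.3 CPM in aRG (−1.77, adjusted p = 0.0157). In each the bIP libraries were all below the aRG libraries. MPP5, which encodes the Crumbs complex scaffold PALS1, fell by 1.32, and JAM3, a junctional adhesion molecule, by 1.66. AFDN, the afadin that links nectins to actin, was higher in bIP, at 879 and 921 CPM, against 389 and 345 CPM in aRG (1.29, SE 0.24, adjusted p = 0.0122). Among these junction genes the calls of CELSR1 and NECTIN3 were lost without bIP replicate 2 (adjusted p = 0.0568 and 0.141), and the fold of CELSR1 was −3.01 without bIP replicate 1. Those of AFDN and MPP5 were lost whichever of the 4 libraries was left out: for AFDN the values were 0.0547 and 0.0764 without bIP replicates 1 and 2 and 0.0515 and 0.0822 without aRG replicates 1 and 2, and for MPP5 0.0626, 0.217, 0.0934 and 0.06 in the same order. JAM3 was lost without bIP replicate 1 (0.12) and without aRG replicate 2 (0.12). Of the 40, 3 fell and 0 rose by edgeR without bIP replicate 2, and 4 fell without aRG replicate 2.

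Transcripts of mitosis were lower in bIP almost throughout. Of 26 members 0 rose and 25 fell by edgeR (0 and 25 by DESeq2, 0 and 25 at an unadjusted p under 0.05), with a median of −3.24, and 23 to 24 fell when a library was left out. TOP2A, which untangles chromosomes, was at 72.3 and 107 CPM in bIP, against 1168 and 893 CPM in aRG (−3.52, adjusted p = 0.000306), and at 448 and 402 CPM in bRG and 16.5 and 13.3 CPM in N. AURKA, a spindle kinase, was at 8.43 and 5.43 CPM in bIP, against 114 and 90.9 CPM in aRG (−3.89, adjusted p = 0.000694). Both bIP libraries of TOP2A lay between the bRG and the N libraries, while those of AURKA overlapped with N, at 6.23 and 2.89 CPM. TACC3, a spindle protein without counts on the chimpanzee genome, was at 20.4 and 35.9 CPM in bIP, against 378 and 387 CPM in aRG on the human genome (−3.77, SE 0.35, adjusted p = 0.000543).

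Regulators of G1 and of cell cycle exit were mostly not called. Of 31 members tested 0 rose and 1 fell by edgeR (2 and 4 by DESeq2, 2 and 9 at an unadjusted p under 0.05), with a median of −0.33. The member that fell was E2F8, a repressor of S-phase genes (−3.38, adjusted p = 0.00962, and 0.0681 without bIP replicate 2). CCNG2, a cyclin of arrested cells, was at 161 and 184 CPM in bIP and 87.2 and 81.8 CPM in aRG (1.03, adjusted p = 0.0612). CCND1, the G1 cyclin, had no counts on the chimpanzee genome, and on the human genome it was at 15.1 and 12.1 CPM in bIP and 73.1 and 35.0 CPM in aRG (−1.99, adjusted p = 0.0625). Its relative CCND2 was below 1 CPM on the chimpanzee genome, and on the human genome its fold was −0.60 (SE 0.29, adjusted p = 0.283).

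Enzymes that supply serine and nucleotides fell in part. Of 33 members tested 0 rose and 4 fell by edgeR (0 and 10 by DESeq2, 0 and 16 at an unadjusted p under 0.05), with a median of −0.55. PHGDH, the entry enzyme of serine synthesis, was at 114 and 105 CPM in bIP, against 315 and 562 CPM in aRG (−2.00, SE 0.29, adjusted p = 0.00308). RRM2, the regulated subunit of ribonucleotide reductase, was at 35.0 and 66.9 CPM in bIP, against 287 and 289 CPM in aRG (−2.50, SE 0.34, adjusted p = 0.00212). Its partner RRM1 fell by 1.31 and PSAT1, the next enzyme of serine synthesis, by 1.45. The calls of both were lost without bIP replicate 1 (adjusted p = 0.17 and 0.0562), without bIP replicate 2 (0.0501 and 0.229) and without aRG replicate 2 (0.0853 and 0.108). Without bIP replicate 1 or without aRG replicate 2, 2 genes of the list fell. Of 34 genes of glycolysis 0 rose and 0 fell by edgeR (1 and 3 by DESeq2, 1 and 3 at an unadjusted p under 0.05), and of 38 genes of cholesterol and fatty acid synthesis 0 rose and 0 fell by edgeR (0 and 4 by DESeq2, 1 and 4 at an unadjusted p under 0.05). The glucose transporter SLC2A1 was at 35.4 and 82.6 CPM in bIP and 23.6 and 200.4 CPM in aRG, so it was higher in library 2 of each population and the groups overlapped.

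Axon guidance genes were higher in bIP for part of the list. Of 52 members 11 rose and 1 fell (16 and 2 by DESeq2, 21 and 4 at an unadjusted p under 0.05), with a median of 0.60. Of the risers SLIT1, SEMA6C and SEMA6D are ligands and the others receptors. The calls of SEMA6C (1.75) and SEMA6D (1.81) were lost without bIP replicate 2 (adjusted p = 0.139 and 0.146, with a fold of 1.17 for SEMA6D) and without aRG replicate 1 (0.135 and 0.0761). NRP2, a semaphorin coreceptor, was at 371 and 415 CPM in bIP, against 24.8 and 40.5 CPM in aRG (3.59, SE 0.34, adjusted p = 0.000539). DCC, the netrin receptor, was at 65.4 and 119 CPM in bIP, against 6.69 and 8.96 CPM in aRG (3.55, SE 0.41, adjusted p = 0.0009). PLXNA2, a plexin that pairs with neuropilins, was at 471 and 504 CPM in bIP, against 79.2 and 100.3 CPM in aRG (2.44, SE 0.42, adjusted p = 0.00768). The bIP libraries of all 3 receptors exceeded every aRG library. PLXNA2 was at 48.7 and 129 CPM in bRG and 185 and 321 CPM in N, and NRP2 at 55.2 and 85.5 CPM in bRG and 309.9 and 229 CPM in N. UNC5A, a repulsive netrin receptor, was at 115 and 114 CPM in bIP, against 9.32 and 23.0 CPM in aRG (2.82, adjusted p = 0.00758). The ligand SLIT1 was at 215 and 258 CPM in bIP, against 37.4 and 56.2 CPM in aRG (2.33, adjusted p = 0.00308). EFNB1, an ephrin of progenitors, fell by 1.48 (adjusted p = 0.0379), a call lost without bIP replicates 1 and 2 (0.141 and 0.183) and without aRG replicate 2 (0.172). Of the 52, 7 rose without bIP replicate 2 and 6 without aRG replicate 1. The fold of UNC5A was 3.62 without aRG replicate 2.

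Of 40 genes of neuronal microtubules and neurite growth 16 rose and 0 fell by edgeR (19 and 0 by DESeq2, 28 and 0 at an unadjusted p under 0.05), with a median of 1.13. DCX, the microtubule protein of migrating neurons, was at 1101 and 1526 CPM in bIP, against 142 and 289.9 CPM in aRG (2.60, SE 0.37, adjusted p = 0.00265), and at 1988 and 1644 CPM in N. STMN3, a stathmin that destabilises microtubules, was at 107 and 83.3 CPM in bIP, against 18.0 and 27.4 CPM in aRG (2.07, SE 0.32, adjusted p = 0.00423). TAGLN3, an actin-binding protein of neurons, was at 188 and 210.1 CPM in bIP, against 69.5 and 66.1 CPM in aRG (1.56, SE 0.26, adjusted p = 0.00697). Each gene separated the populations without overlap. The endosomal protein NSG2 was at 269 and 367 CPM in bIP, against 28.4 and 67.0 CPM in aRG (2.74, adjusted p = 0.00897). MAP2, the dendritic microtubule protein, rose by 1.52, a call lost without bIP replicate 2 (0.0898) and without aRG replicate 1 (0.057). The count of this list depended on single libraries: 10 and 6 genes rose without bIP replicates 1 and 2, and 5 without aRG replicate 1. Without aRG replicate 2 the folds of DCX and NSG2 were 3.21 and 3.49.

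Of 48 neural adhesion genes 9 rose and 0 fell by edgeR (12 and 5 by DESeq2, 14 and 9 at an unadjusted p under 0.05), with a median of 0.37. NFASC, an adhesion molecule of axons, was at 1036 and 1149 CPM in bIP, against 109 and 164 CPM in aRG (3.00, SE 0.37, adjusted p = 0.0011). L1CAM, another, was at 459 and 431 CPM in bIP, against 47.9 and 79.1 CPM in aRG (2.81, SE 0.37, adjusted p = 0.00168). For NFASC the bIP libraries came near those of N, which were at 1186 and 1326 CPM. CNTN2, a contactin of early axons, was at 143 and 311 CPM in bIP, against 15.1 and 25.8 CPM in aRG (3.47, adjusted p = 0.00227), and at 24.3 and 54.7 CPM in N, so that its bIP libraries stood above all others. Its fold was 2.80 without bIP replicate 2. IGSF21, a synaptic organiser, rose by 2.57.

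Genes of synaptic vesicle release were higher in bIP for part of the list. Of 43 members 18 rose and 0 fell by edgeR (25 and 0 by DESeq2, 28 and 1 at an unadjusted p under 0.05), with a median of 1.50. SLC17A6, a vesicular glutamate transporter, was at 74.2 and 71.5 CPM in bIP, against 5.59 and 8.9 CPM in aRG (3.33, SE 0.34, adjusted p = 0.000539), and at 55.3 and 64.2 CPM in N. STX1A, a SNARE protein of the presynaptic membrane, was at 161 and 118 CPM in bIP, against 22.7 and 33.6 CPM in aRG (2.31, SE 0.33, adjusted p = 0.00254). SYP, the vesicle protein synaptophysin, was at 362 and 344 CPM in bIP, against 33.2 and 65.8 CPM in aRG (2.83, SE 0.41, adjusted p = 0.00279). The populations did not overlap in any of the 3. BSN, a scaffold of the release site, and SYN3, a synapsin, rose by 2.37 and 2.50. CHGA, a granin of dense-core vesicles, was at 30.9 and 22.5 CPM in bIP, against 1.02 and 3.01 CPM in aRG (3.71, adjusted p = 0.00329). Its fold was 3.10 without aRG replicate 1 and 4.70 without aRG replicate 2. The number that rose was 12 without bIP replicate 1.

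Of 48 voltage-gated channel genes 17 rose and 0 fell by edgeR (21 and 0 by DESeq2, 23 and 1 at an unadjusted p under 0.05), with a median of 1.03. CACNA1G, a T-type calcium channel, was at 112 and 124 CPM in bIP, against 13.6 and 9.97 CPM in aRG (3.32, SE 0.31, adjusted p = 0.000539), and at 61.2 and 44.6 CPM in N. SCN3A, a sodium channel of the fetal brain, was at 151 and 226 CPM in bIP, against 17.4 and 27.8 CPM in aRG (3.06, SE 0.33, adjusted p = 0.000602). CACNA2D1, an auxiliary calcium channel subunit, was at 316 and 281 CPM in bIP, against 83.2 and 59.7 CPM in aRG (2.06, SE 0.31, adjusted p = 0.00369), and at 145 and 96.2 CPM in N. In CACNA1G and CACNA2D1 both bIP libraries were above those of every other population. KCNH7 and KCNN3, potassium channels, rose by 3.08 and 2.12. Without aRG replicate 1, 8 of the 48 rose.

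Of 48 transmitter receptor genes 9 rose and 0 fell by edgeR (13 and 3 by DESeq2, 14 and 4 at an unadjusted p under 0.05), with a median of 0.60. GRIA2, an AMPA receptor subunit, was at 508 and 342 CPM in bIP, against 25.0 and 41.3 CPM in aRG (3.68, SE 0.38, adjusted p = 0.000561). CHRNA3, a nicotinic receptor subunit, was at 118 and 121 CPM in bIP, against 17.0 and 23.6 CPM in aRG (2.55, SE 0.31, adjusted p = 0.00109), and at 11.6 and 12.6 CPM in N. CNR1, the cannabinoid receptor, was at 379 and 385 CPM in bIP, against 25.3 and 54.2 CPM in aRG (3.27, SE 0.45, adjusted p = 0.00212). The bIP libraries of CHRNA3 were thus above all 6 others, while for GRIA2 the N libraries, at 1419.9 and 1095 CPM, were higher. GRIA4, another AMPA receptor subunit, and GRM2, a metabotropic glutamate receptor, rose by 3.11 and 2.84. The fold of CNR1 was 3.92 without aRG replicate 2, that of GRIA4 was 4.01 without aRG replicate 1, and 6 genes of the list rose without aRG replicate 1.

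**Figure D4:**
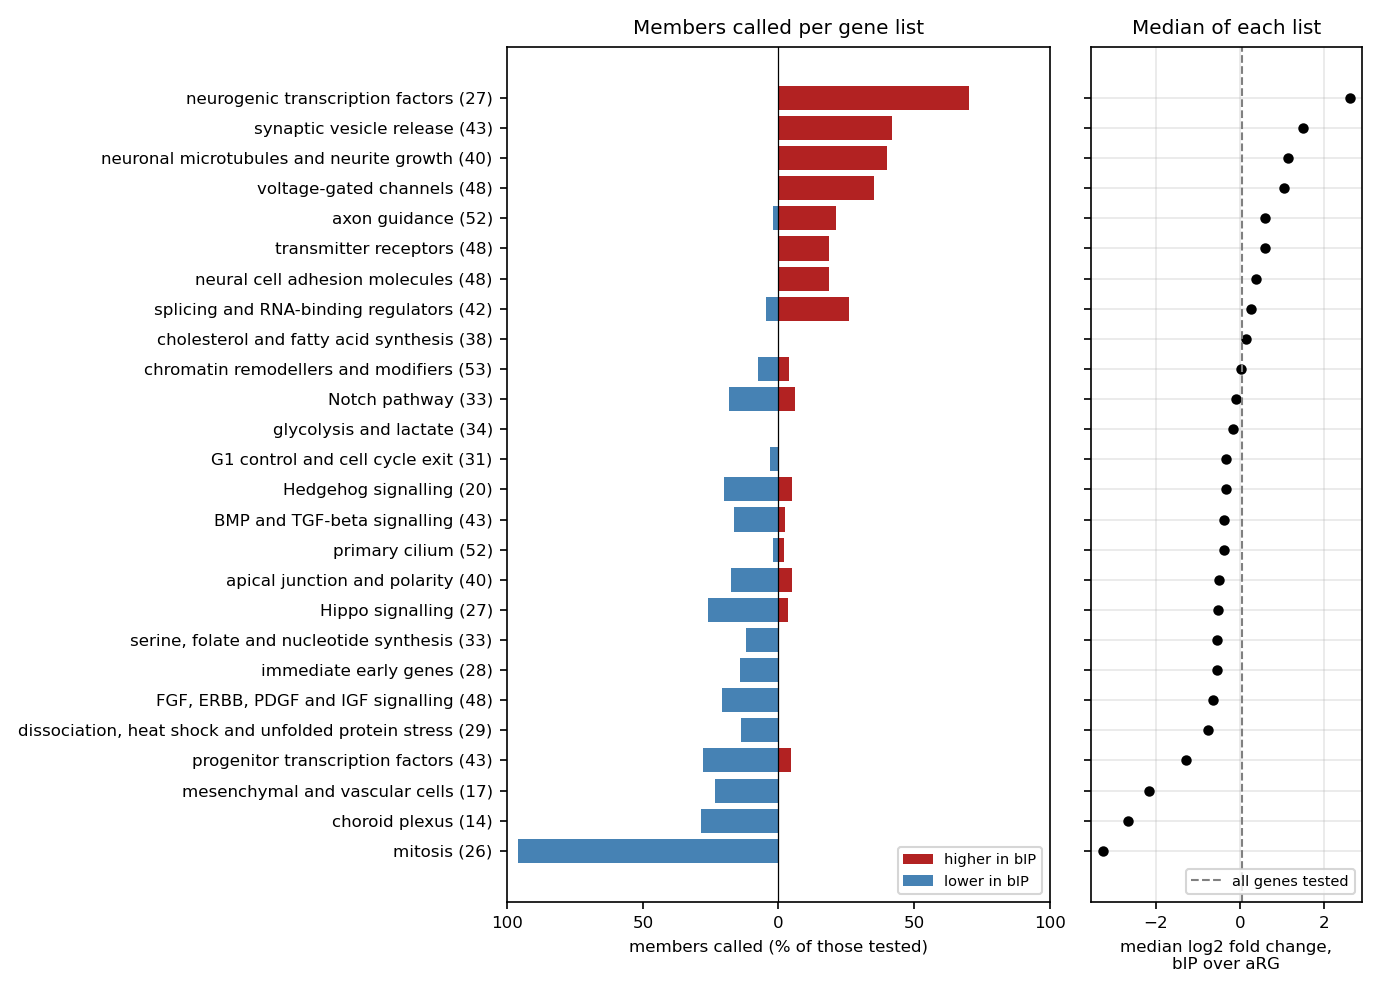
Share of tested members called higher (red, right) or lower (blue, left) in bIP for 26 gene lists, with the number tested in parentheses, and the median log2 fold change of each list (right panel, dashed line for all genes). Lists are sorted by median: neurogenic transcription factors stand at the top and mitosis at the bottom, while glycolysis and sterol synthesis hold no call.

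Regulators of splicing and of messenger RNA were higher in bIP for part of the list. Of 42 tested 11 rose and 2 fell (14 and 3 by DESeq2, 16 and 3 at an unadjusted p under 0.05), with a median of 0.26. Of all genes of at least 10 CPM 3.73% rose and 4.33% fell, so the number of falls was near the general share. SRRM4, which switches on neuronal microexons, was at 431 and 501 CPM in bIP, against 20.5 and 53.5 CPM in aRG (3.65, SE 0.49, adjusted p = 0.00192), and its relative SRRM3 was at 138 and 105 CPM in bIP, against 12.9 and 9.99 CPM in aRG (3.41, SE 0.39, adjusted p = 0.000848). ELAVL4, a neuronal Hu protein, was at 592 and 755 CPM in bIP, against 162 and 160.4 CPM in aRG (2.06, SE 0.25, adjusted p = 0.00108). The splicing factors RBFOX3 and RBFOX2 rose by 3.00 and 1.75. ZFP36L1, a mRNA decay factor, was at 61.9 and 56.1 CPM in bIP, against 1105 and 636 CPM in aRG (−3.88, SE 0.40, adjusted p = 0.000561), and QKI, an RNA-binding protein of neural stem cells and glia, was at 77.1 and 69.0 CPM in bIP, against 301 and 247 CPM in aRG (−1.91, SE 0.28, adjusted p = 0.00348). For these 2 genes both aRG libraries were higher. Without bIP replicate 1 or without aRG replicate 1, 7 genes of the list rose. The fold of SRRM4 was 4.51 without aRG replicate 2.

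Chromatin regulators were mostly not called. Of 53 tested 2 rose and 4 fell (2 and 5 by DESeq2, 10 and 15 at an unadjusted p under 0.05), with a median of 0.01, or −0.04 without bIP replicate 2 and −0.14 without aRG replicate 1. HMGA2, a chromatin protein of young neural stem cells in mouse, was at 149 and 103 CPM in bIP, against 717 and 499 CPM in aRG (−2.27, SE 0.44, adjusted p = 0.0148), a call lost without bIP replicate 2 (0.0986). HELLS, a remodeller active in dividing cells, was at 124 and 185 CPM in bIP, against 484 and 417 CPM in aRG (−1.54, adjusted p = 0.00809), a call lost without bIP replicate 1 (0.0895). CHD3, a NuRD remodeller, rose by 1.57, and the CoREST corepressor RCOR2 by 1.48. CHD3 and RCOR2 were lost without bIP replicate 2 (0.195 and 0.119) and without aRG replicate 1 (0.145 and 0.184), CHD3 also without aRG replicate 2 (0.0516) and RCOR2 also without bIP replicate 1 (0.0748). Without bIP replicates 1 and 2, 1 gene of the list fell in each case, and 0 rose without bIP replicate 2 or without aRG replicate 1. The Polycomb enzymes EZH2 and EZH1 were at −0.58 and 0.30 (adjusted p = 0.372 and 0.678).

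Paralogue pairs were read gene by gene. The progenitor member of a pair is a progenitor or general gene, and the neuronal member one assigned to neurons or their precursors. Over 30 pairs, 11 of 29 neuronal members tested rose, and 6 of 28 progenitor members tested fell. In 4 pairs both members were called, in opposite directions, among them SOX2 and SOX11, VIM and INA, and HES1 and HES6. HES6, also counted above as an intermediate progenitor gene, was not highest in neurons. It was at 277 and 410 CPM in bIP, 83.0 and 108 CPM in aRG and 75.7 and 40.4 CPM in N. VIM, the intermediate filament of radial glia, was at 167 and 153 CPM in bIP, against 1122 and 1289 CPM in aRG (−2.91, adjusted p = 0.000539), where the neuronal filament INA was at 128 and 199 CPM in bIP, against 21.0 and 50.2 CPM in aRG (2.20, adjusted p = 0.0251). Both genes separated the populations without overlap. The calls of INA and HES6 were lost without bIP replicate 2 (adjusted p = 0.108 and 0.0923) and without aRG replicate 1 (0.122 and 0.0893), and the fold of INA was 2.96 without aRG replicate 2.

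In other pairs the neuronal member was called and its general relative was not. The SNARE gene SNAP25 rose by 2.81, whereas SNAP23 was at 14.5 and 17.9 CPM in bIP and 15.9 and 11.3 CPM in aRG (0.25, adjusted p = 0.895). STX4, the general relative of STX1A, was at −0.48 (adjusted p = 0.604). Whether the 2 members of a pair differed was not tested. ACTL6B, the neuronal actin-like subunit of BAF remodelling complexes, had no counts on the chimpanzee genome. On the human genome ACTL6B was at 118 and 168 CPM in bIP, against 9.06 and 15.9 CPM in aRG (3.51, SE 0.53, adjusted p = 0.00309). Its progenitor relative ACTL6A was at 18.7 and 25.2 CPM in bIP and 23.7 and 14.6 CPM in aRG (0.20, adjusted p = 0.924). The splicing repressor PTBP1, also counted on the human genome only, was at 165 and 170.1 CPM in bIP and 238 and 240.4 CPM in aRG (−0.51, adjusted p = 0.191), and PTBP2 at 121 and 114 CPM in bIP and 104 and 111 CPM in aRG (0.13, adjusted p = 0.907). The chloride cotransporters SLC12A2 and SLC12A5 were at −0.28 and 1.05 (adjusted p = 0.805 and 0.412). The fold of SNAP25 was 3.60 without aRG replicate 2.

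Among 52 genes of the primary cilium 1 rose and 1 fell (2 and 6 by DESeq2, 3 and 12 at an unadjusted p under 0.05), with a median of −0.38. IFT122, of the transport machinery, fell by 1.41, a call lost without bIP replicates 1 and 2 (adjusted p = 0.0756 and 0.097) and without aRG replicate 1 (0.0628). CFAP298, a cilia protein, rose by 1.72, a call lost without bIP replicate 2 (0.116) and without aRG replicate 1 (0.146). Of 28 immediate early genes 0 rose and 4 fell by edgeR (0 and 6 by DESeq2, 0 and 7 at an unadjusted p under 0.05); these were FOS and EGR1, described above, ATF3 and KLF6. Of 29 genes of dissociation, heat shock and unfolded protein stress 0 rose and 4 fell by edgeR (0 and 12 by DESeq2, 0 and 14 at an unadjusted p under 0.05); these were HSP90B1, HSPB1, TRIB3 and PDIA4. HSPB1, a small heat shock protein, was at 107 and 103 CPM in bIP, against 317 and 432 CPM in aRG (−1.83, adjusted p = 0.0133), and HSP90B1, a chaperone of the endoplasmic reticulum, at 392 and 384 CPM in bIP, against 1176 and 1002 CPM in aRG (−1.49, adjusted p = 0.00817). The calls of HSPB1, HSP90B1, TRIB3 and PDIA4 were lost without bIP replicate 1 (0.0613, 0.0567, 0.144 and 0.18) and without bIP replicate 2 (0.0805, 0.0706, 0.0904 and 0.155), those of TRIB3 and PDIA4 also without aRG replicate 2 (0.24 and 0.0545) and that of PDIA4 without aRG replicate 1 (0.116). ATF3 (−2.21) and KLF6 (−1.18) were lost without bIP replicate 1 (0.0971 and 0.0774), without bIP replicate 2 (0.0877 and 0.308) and without aRG replicate 2 (0.0716 and 0.252), and ATF3 without aRG replicate 1 (0.0507). Of the stress list 0 genes fell by edgeR without either bIP replicate, and of the immediate early genes 2 fell without bIP replicate 1, without bIP replicate 2 or without aRG replicate 2.

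Counting on the human genome kept most calls, added others and gave counts for genes at 0 on the chimpanzee genome. Of the 1002 genes called, 863 (86.1%) could also be tested on the human genome, where 853 were called in the same direction, 10 had the same direction without a call and 0 had the opposite direction. Of the 1191 genes called on the human genome, 1157 could be tested on the chimpanzee genome, where 853 (73.7%) were called and 304 were not. The median absolute difference between the 2 log2 fold changes was 0.075, and 8 genes differed by more than 1, among them CELF6 and GJA1. Conversely, 605 genes tested on the human genome had no counts in any of the 8 libraries on the chimpanzee genome, 293 of them at 10 CPM or more in bIP or aRG, and 30 of the 605 were called, 15 higher and 15 lower. BRSK2, a kinase that sets neuronal polarity in mouse, was at 208 and 213 CPM in bIP, against 65.8 and 59.4 CPM in aRG (1.75, adjusted p = 0.00167). NEFM, the medium neurofilament, was at 26.6 and 94.9 CPM in bIP, against 12.8 and 17.4 CPM in aRG (2.00, adjusted p = 0.0387). LMNB2, a nuclear lamin, was at 85.3 and 82.3 CPM in bIP, against 183 and 205 CPM in aRG (−1.21, adjusted p = 0.0112). A level of 0 on the chimpanzee genome was therefore no measure of absence for these genes. TUBB3, the neuronal beta-tubulin, was low on both genomes. On the chimpanzee genome it was at 22.9 and 28.7 CPM in bIP and 3.46 and 8.73 CPM in aRG (2.08, adjusted p = 0.057). On the human genome it was at 15.0 and 28.1 CPM in bIP and 3.27 and 6.51 CPM in aRG (2.13, adjusted p = 0.0372).

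**Figure D5:**
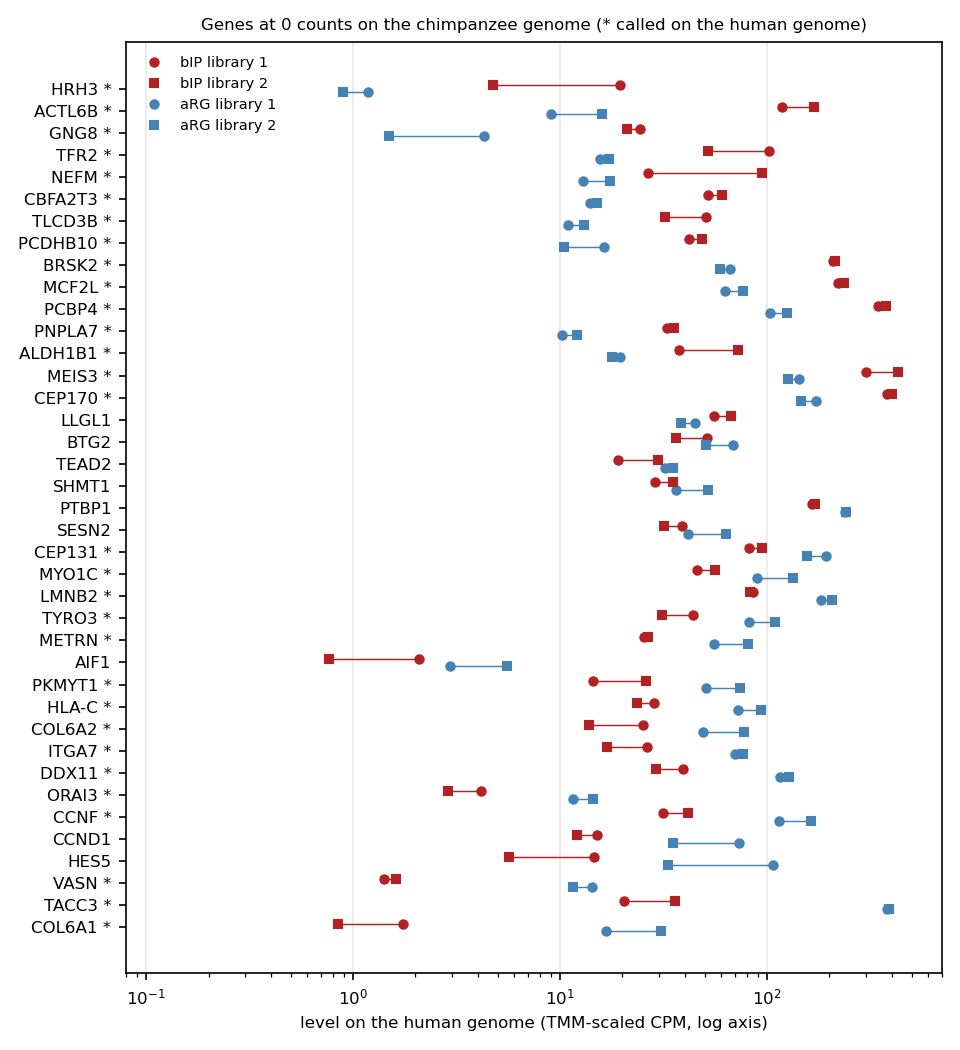
Level in CPM on the human genome (log axis) of 39 genes without counts on the chimpanzee genome: the 30 called on the human genome, marked with an asterisk, and 9 members of the gene lists or pairs that were not called. Red marks are bIP libraries and blue marks aRG libraries, circles library 1 and squares library 2. Genes run from the largest rise (top) to the largest fall (bottom), with ACTL6B near the top and TACC3 near the bottom.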

How the data were processed

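RNA of sorted bIP, aRG, bRG and N cells was sequenced in bulk, with 2 libraries of each population. The deposited tables hold raw counts, whole numbers for each gene, with 60583 rows on panTro6 and 18137 on hg38. Reads were aligned with STAR, per the submitters' processing notes; for its version, the annotation and the counting tool the sources used here give nothing. The row with no gene name, 0.00545% to 0.00771% of counts, was left out. Totals on panTro6 ranged from 24649971 to 33245892 counts per library, about 2 times those on hg38, and whether both mates of a read pair were counted there is not given, so counts were also halved.

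The panTro6 counts of all 8 libraries were fitted with edgeR 4.0.16 in R 4.3.3 (filterByExpr, TMM scaling, a quasi-likelihood test of bIP minus aRG with 4 residual degrees of freedom, Benjamini-Hochberg adjustment, threshold 0.05). The common biological coefficient of variation was 0.629. The 2 libraries of a population differed by far more than sampling noise, with chi-square per gene of 40.6 for bIP and 63.5 for aRG. Alternatives were DESeq2 1.42.0, the hg38 counts, other filters and scaling, the 4 libraries alone, the replicate number as a block, and each library left out. The script was tested on simulated counts drawn with less spread than these libraries show. That run checked the code and does not measure power or error rates at the spread found here. Members of gene lists, pairs and the comparison itself were chosen with earlier results of these data known. Genes named include the 12 largest rises and falls among called genes of at least 10 CPM without overlap. Clone, antisense, microRNA and some other noncoding names were left out of this ranking, but pseudogene names were not. List members with the smallest adjusted p or called against their list, and pair and marker genes, are named too. Some others, mostly genes not called, were named after their values were seen. Lists were described by counts, with no test over a list. The hg38 values of list members at 0 on panTro6, and the share called among genes of at least 10 CPM, were added after the data were seen. Some members of the lists and pairs are not reported here by name or in the plots, though the counts include them. Protein and promoter sequences were not used here.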

Additional observations from a re-analysis of the deposited data

How the results depend on the processing

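The 1002 calls (473 higher in bIP, 529 lower) were 2159 (953 and 1206) with no filter on low counts, 2303 (1072 and 1231) by DESeq2 and 2122 (1007 and 1115) with the replicate number as a block. These settings shared 1002, 998 and 1002 calls with the 8-library fit, which left the number out. The labels do not say that a number marks a shared culture or batch, and the deviations of same-numbered libraries correlated at 0.128 between bIP and aRG and at 0.123 to 0.266 over all 6 pairs of populations. With 2 libraries a population this leaves the pairing undecided. Leaving out 1 library at a time gave 582 to 693 calls, 233 to 368 of them higher and 286 to 460 lower, and 52.1% to 60.2% of the 1002 were called in each such fit, but 344 (34.3%) in all 4 of them. Without aRG replicate 1 the median fold of all genes was 0.17. Other settings gave 970 calls (4 libraries alone), 994 (DESeq2 size factors), 1130 (halved counts), 1250 (a minimum of 5 CPM in 2 libraries) and 1191 (human genome). Over the 1043 tested genes of the lists, pairs and leading genes, and all settings run, 314 values lost and 558 gained a call. None changed sign where the gene was called in the 8-library fit or in the other setting. Sign changes of genes called in neither were not counted. Of 35 list medians 8 changed sign when a library was left out. Glycolysis was at 0.54 without aRG replicate 2, and cholesterol synthesis at −0.19 without bIP replicate 1 and −0.03 without aRG replicate 1. Without aRG replicate 1 immediate early genes were at 0.01 and regional and neural crest genes at 0.06, and without bIP replicate 2 inhibitory neuron genes were at −0.33 and pluripotency genes at −1.25. With a minimum of 5 CPM, 1 inhibitory neuron gene was left (−1.01). Chromatin genes (−0.02 with no filter) and Cajal-Retzius genes are given above. The cause of these shifts was not tested. Genes too low for the filter were not tested, which is where depth limits the comparison.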
